A study of Mus musculus with 10 samples.

Results

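Class I histone deacetylases act inside large protein complexes, and the genes described here encode the subunits of those complexes other than MiDAC, the mitotic deacetylase complex that the study disrupted. The 38 genes were chosen by name from the 34591 genes of the expression table, and no measured value was used to choose them. They comprise the enzymes *Hdac3* and *Hdac8*, 9 subunits of NuRD, the histone chaperones *Rbbp4* and *Rbbp7* that NuRD and SIN3 share, 6 subunits of CoREST, 12 of SIN3, 4 of NCoR/SMRT and the 3 MIER proteins. All 38 were in the table and all passed the filter on low values.

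RNA was measured by stranded total RNA sequencing in 10 libraries of male C57/BL6 Bruce-4 mouse embryonic stem cells (mESCs) kept in 2iL medium, which holds a GSK3 inhibitor, a MEK inhibitor and LIF. The groups were unedited WT mESCs with 2 libraries, *Dnttip1* KO with the clones D2A7 and D1E6, and *Elmsan1* KO with the clones E2E8 and E2G7, each clone with 2 libraries. *Dnttip1* and *Elmsan1* (listed in the table as *C130039O16Rik*) encode the scaffold subunits of MiDAC, and each was disrupted by CRISPR/Cas9 in cells that were sorted as single cells, so a clone descends from 1 edited cell. Whether the WT cells passed through the same single-cell step is not given in the sources used here.

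In humans MiDAC holds the deacetylase HDAC1 or HDAC2. In mESCs the paper detected HDAC1 but not HDAC2 with DNTTIP1 and ELMSAN1, and proposes that MiDAC holds only HDAC1 there. NuRD, SIN3 and CoREST carry HDAC1 and HDAC2, and NCoR/SMRT carries HDAC3. The remaining subunits bring the enzymes to chromatin: NuRD adds a CHD remodelling ATPase, MTA scaffolds and MBD and GATAD2 proteins, CoREST joins the deacetylase to the histone demethylase KDM1A through an RCOR scaffold, and SIN3 builds on the large scaffold SIN3A or SIN3B. HDAC8 acts outside these complexes and is known for deacetylating the cohesin subunit SMC3. In mESCs these repressor complexes are known for restraining and fine-tuning genes as cells leave the naive state.

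The libraries held 31098269 to 86463773 fragments, as implied by the size of the smallest step between values, and the 2 WT libraries were the shallowest. All 9 pluripotency markers examined, among them *Pou5f1*, *Nanog* and *Sox2*, were at 59.0 FPKM (fragments per kilobase of exon, scaled to the library's total) or more in every library. The 7 fibroblast markers summed to between 0.136 and 0.587 FPKM per library, and 5 of them stayed under 0.1 FPKM throughout. The 4 neural markers in the table summed to 58.1 to 64.6 FPKM in WT, 83.7 to 94.6 FPKM in *Dnttip1* KO and 50.2 to 96.5 FPKM in *Elmsan1* KO, with *Pax6* under 0.1 FPKM throughout. The 4 mesoderm markers summed to 2.76 to 2.96, 2.52 to 3.76 and 3.53 to 3.77 FPKM in the same order. The sums of the 5 primed epiblast markers (273 to 373 FPKM) and of the 6 primitive endoderm markers (0.684 to 1.55 FPKM) reached both extremes in *Dnttip1* KO. The part of these cell types in the results for the subunits was not tested. *Dnttip1* RNA was 8.45 and 8.35 FPKM in WT and 2.58 to 4.57 FPKM in the *Dnttip1* KO libraries, while *C130039O16Rik* was 5.73 and 5.34 FPKM in WT and 4.62 to 5.13 FPKM in the *Elmsan1* KO libraries, so in both KOs RNA of the edited gene was still counted. The log2 fold changes were -1.26 ± 0.28 (SE, adjusted p = 0.0471) and -0.19 ± 0.08 (SE, adjusted p = 0.188), and the second did not pass the test in limma.

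The subunits were expressed at levels that spanned from about 1 to more than 100 FPKM and varied little between libraries. FPKM is a level per length, so genes can be compared. The mean over the 10 libraries had a median of 14.9 FPKM across the 38 members, against 9.50 FPKM across the 12215 genes whose mean reached 1 FPKM. The highest library was within 1.5-fold of the lowest for 32 of 38 members (84.2%), against 56.9% of those 12215 genes. The median coefficient of variation over the 10 libraries was 8.59% for the members and 12.1% for the 12215 genes. The 12215 genes were not matched to the members in level, and the part of level in these differences was not tested.

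*Rbbp7*, which encodes a chaperone that binds histone H4, had the highest level, with 104 and 107 FPKM in WT, 100.2, 97.7, 111 and 111 FPKM in *Dnttip1* KO (D2A7, then D1E6, 2 libraries each, here and in all later lists) and 103, 98.7, 115 and 113 FPKM in *Elmsan1* KO (E2E8, then E2G7). *Chd4*, the main ATPase of NuRD, followed with 70.6 and 66.9 FPKM in WT, 71.0, 74.6, 84.5 and 84.3 FPKM in *Dnttip1* KO and 70.4, 73.6, 85.7 and 86.9 FPKM in *Elmsan1* KO. *Sap30*, a SIN3 subunit that stabilises the enzyme in the complex, was the third, with 67.3 and 60.6 FPKM in WT, 71.8, 70.1, 63.5 and 63.9 FPKM in *Dnttip1* KO and 57.3, 55.9, 66.1 and 68.4 FPKM in *Elmsan1* KO. *Rbbp7* exceeded both in every library, whereas *Sap30* was above *Chd4* in D2A7 replicate 1 and below it in all other libraries. The order below them was *Kdm1a* with a mean of 51.8 FPKM, *Rbbp4* with 51.8 FPKM and *Mta2* with 49.7 FPKM, whose values overlapped between libraries.

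At the other end stood *Hdac8*, *Phf21a* and *Rcor3*, with means of 1.07, 1.73 and 3.02 FPKM. *Phf21a*, which encodes the CoREST reader of unmethylated histone H3, had 1.62 and 1.77 FPKM in WT, 1.64, 1.69, 1.69 and 1.86 FPKM in *Dnttip1* KO and 1.98, 1.86, 1.63 and 1.53 FPKM in *Elmsan1* KO, with the groups overlapping. *Hdac8* rested on the fewest fragments, with 211 in its lowest library, and *Rcor3* had at least 370 in every library. In WT *Chd4* supplied 87.3% of the summed *Chd3* and *Chd4* FPKM, *Gatad2a* 84.6% of the GATAD2 pair and *Rcor2* 77.2% of the 3 RCOR genes, while *Mta2* supplied 66.0% of the MTA genes and *Mier3* 49.8% of the MIER genes, each the largest share of its family.

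**Figure D1:**
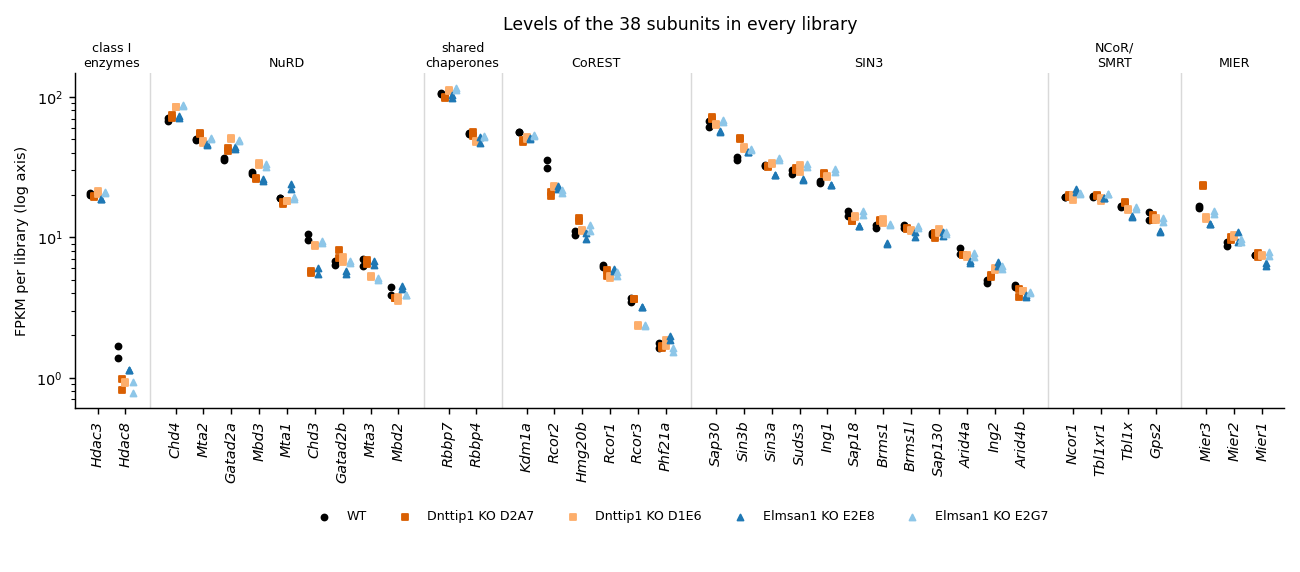
FPKM of the 38 subunits in each of the 10 libraries on a log axis, grouped by complex and ordered by mean level; each point is 1 library and colours and shapes mark the lines. Levels run from *Hdac8* near 1 FPKM to *Rbbp7* above 97 FPKM, and most members form tight columns.

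The question for each KO was whether losing a MiDAC scaffold was accompanied by altered RNA of the other deacetylase complexes. A gene was called at a 1.5-fold change or more with p under 0.01 in limma, fitted to log2(FPKM + 0.1) across all genes. In *Dnttip1* KO against WT 2 of 38 members were lower and none was higher, beside 6.5% of the 17435 genes tested being called (3.24% lower, 3.26% higher). The members were *Hdac8* and *Rcor2*. In *Elmsan1* KO against WT 1 of 38 was lower, *Rcor2*, and none was higher, beside 6.42% of 17205 genes (3.68% lower, 2.74% higher). At an adjusted p under 0.05 (Benjamini-Hochberg, over all genes tested) with no limit on size, 2 members passed in *Dnttip1* KO against 9.47% of all genes, and 3 passed in *Elmsan1* KO against 10.5% of all genes. With each chromosome centred on WT, 1 member passed in each KO. The shares of members called in either direction are thus near or below those of all genes. The 2 called lower in *Dnttip1* KO are 5.26% of members, beside 3.24% of all genes. The median log2 fold change of the 38 members was 0.01 in *Dnttip1* KO and -0.05 in *Elmsan1* KO, beside 0.02 and 0.00 for all genes tested. The median size without sign was 0.12 in both, beside 0.21 in both for all genes tested. Among the 12215 genes whose mean reached 1 FPKM, which were not matched to the members in level, the median size was 0.16 and 0.17. Both comparisons use the same 2 WT libraries, and in bulk RNA fewer cells of a type and less RNA per cell cannot be told apart.

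Among the enzymes, *Hdac8* was lower in every KO library than in either WT library, and *Hdac3* did not pass the test. In *Dnttip1* KO 10 of 38 members (26.3%) had every library below WT, beside 20.7% of all genes tested. In *Elmsan1* KO it was 9 of 38 (23.7%), beside 21.8%, so this separation is near the share of all genes. *Hdac8* lies on chromosome X from 99479978 to 99700698 on the minus strand of NCBIM37, the genome build of the study. It had 1.69 and 1.39 FPKM in WT, 0.987, 0.818, 0.921 and 0.929 FPKM in *Dnttip1* KO and 1.14, 1.13, 0.781 and 0.927 FPKM in *Elmsan1* KO. The log2 fold change was -0.69 ± 0.14 (SE, adjusted p = 0.0353) in *Dnttip1* KO, where the level fell by 38.1%, and -0.59 ± 0.19 (SE, adjusted p = 0.103) in *Elmsan1* KO, which was not called. The other enzyme, *Hdac3*, the catalytic subunit of NCoR/SMRT, had 20.2 and 20.5 FPKM in WT, 19.6, 19.3, 20.5 and 21.3 FPKM in *Dnttip1* KO and 18.7, 18.7, 20.5 and 20.9 FPKM in *Elmsan1* KO, so the groups overlapped. Its log2 fold changes were -0.02 ± 0.06 (SE, adjusted p = 0.893) and -0.05 ± 0.07 (SE, adjusted p = 0.696). The *Hdac8* call in *Dnttip1* KO was lost with a pseudocount of 1 (log2 fold change -0.41), without WT replicate 1 (-0.56) and with an estimated correlation between libraries of a clone (adjusted p = 0.390 with an estimated correlation). In *Elmsan1* KO it was called when all 10 libraries entered 1 fit.

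CoREST held the subunit called in both KOs. *Rcor2* encodes the RCOR scaffold that prevails in mESCs and lies on chromosome 19 from 7341815 to 7349715 on the plus strand. It had 35.4 and 31.4 FPKM in WT, 19.8, 21.1, 22.8 and 23.0 FPKM in *Dnttip1* KO and 21.9, 23.2, 20.6 and 21.8 FPKM in *Elmsan1* KO. Every KO library was below both WT libraries, as were those of 20.7% and 21.8% of all genes tested in the respective comparisons. The log2 fold change was -0.62 ± 0.09 (SE, adjusted p = 0.0130) in *Dnttip1* KO and -0.61 ± 0.07 (SE, adjusted p = 0.00737) in *Elmsan1* KO, where the level fell by 35.1% and fell by 34.4%. The fold change dropped under 1.5-fold without WT replicate 1 (log2 -0.54 and -0.52), without D2A7 replicate 1 (-0.58) and without E2G7 replicate 1 (-0.58), and the adjusted p was 0.136 in *Dnttip1* KO and 0.173 in *Elmsan1* KO with an estimated correlation.

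The other CoREST subunits had smaller differences from WT. *Rcor1*, a second RCOR scaffold, was at -0.22 ± 0.08 (SE, adjusted p = 0.126) and -0.14 ± 0.07 (SE, adjusted p = 0.272), and *Kdm1a*, the demethylase, was at -0.18 ± 0.05 (SE, adjusted p = 0.0668) and -0.13 ± 0.05 (SE, adjusted p = 0.137), in each case log2 fold changes in *Dnttip1* KO and *Elmsan1* KO. Both genes were lower in all 4 libraries of each KO than in WT, with neither past an adjusted p of 0.05. *Hmg20b*, an HMG-box subunit, had 11.1 and 10.3 FPKM in WT, 13.1, 13.8, 11.2 and 11.1 FPKM in *Dnttip1* KO and 9.75, 10.8, 11.1 and 12.3 FPKM in *Elmsan1* KO, and was highest in D2A7. The summed FPKM of *Rcor1*, *Rcor2* and *Rcor3* averaged 43.3 in WT and 29.6, 30.4, 31.6 and 29.0 in D2A7, D1E6, E2E8 and E2G7, a ratio to WT of 0.695 in *Dnttip1* KO and 0.700 in *Elmsan1* KO on the scale of mean log2 values, and *Rcor2* still supplied 68.9% to 75.2% of it in the KO clones.

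The sequences just upstream of 4 of the 5 members called against WT or between clones are given (*Chd3* had no entry) to show how unlike they are in base composition. Each is the 250 bases before the annotated start, 5′ to 3′ on the gene's strand, from RefSeq on GRCm38.p6, and capitals mark matches to 5 short motifs on either strand: GGGCGG of SP and KLF factors, the CCAAT box, the E-box CACGTG, the TATA box TATAAA and the ETS core CCGGAAG.
Hdac8, chrX:102505159-102505408 on the minus strand: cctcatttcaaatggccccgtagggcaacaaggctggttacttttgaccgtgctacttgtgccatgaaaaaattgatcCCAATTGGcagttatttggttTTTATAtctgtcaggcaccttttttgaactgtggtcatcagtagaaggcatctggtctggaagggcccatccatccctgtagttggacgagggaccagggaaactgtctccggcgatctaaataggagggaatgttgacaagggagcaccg
Rcor2, chr19:7267144-7267393 on the plus strand: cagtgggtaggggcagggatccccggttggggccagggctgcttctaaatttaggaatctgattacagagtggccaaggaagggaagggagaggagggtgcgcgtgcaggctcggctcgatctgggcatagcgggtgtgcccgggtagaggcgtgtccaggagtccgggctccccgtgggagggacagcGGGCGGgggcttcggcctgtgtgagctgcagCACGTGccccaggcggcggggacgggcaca
Rcor3, chr1:192138041-192138290 on the minus strand: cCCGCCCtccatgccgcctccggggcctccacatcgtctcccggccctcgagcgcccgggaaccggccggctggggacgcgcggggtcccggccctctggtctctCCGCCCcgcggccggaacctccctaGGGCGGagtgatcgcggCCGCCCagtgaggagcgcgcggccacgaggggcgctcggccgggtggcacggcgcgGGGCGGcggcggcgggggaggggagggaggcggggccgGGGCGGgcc
Mier3, chr13:111685928-111686177 on the plus strand: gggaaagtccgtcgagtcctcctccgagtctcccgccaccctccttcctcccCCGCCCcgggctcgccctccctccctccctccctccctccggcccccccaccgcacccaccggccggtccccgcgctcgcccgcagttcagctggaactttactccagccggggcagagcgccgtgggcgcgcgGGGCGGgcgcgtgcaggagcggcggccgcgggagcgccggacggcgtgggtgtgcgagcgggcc
Upstream of *Hdac8*, GC content was 48.4% with 6 CpG dinucleotides, and the matches were 2 overlapping CCAAT boxes, 1 per strand, and 1 TATA box on the opposite strand, 151 bases before the start at its first base. The window of *Rcor2* had a GC content of 67.6% and 17 CpGs, with 1 GGGCGG 61 bases before the start and 1 CACGTG 30 bases before it. Those of *Rcor3* and *Mier3* were richer still, with 82.8% GC, 39 CpGs and 6 matches to GGGCGG, and 78.4% GC, 34 CpGs and 2 matches. Of the 38 members 31 had an entry, and their median was 61.6% GC and 18 CpGs, beside 52.4% and 6 over all 32851 promoters listed. GGGCGG was found in 24 of the 31 (77.4%) and in 32.7% of all promoters, CCAAT in 16 (51.6%) and 33.8%, CACGTG in 2 (6.45%) and 6.02%, TATAAA in 4 (12.9%) and 12.4%, and CCGGAAG in 3 (9.68%) and 6.91%. A match is a description of letters and was not tied to binding of a factor.

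No NuRD subunit was called in either KO against WT. The lowest was *Chd3*, an ATPase related to CHD4, with 10.5 and 9.52 FPKM in WT, 5.56, 5.75, 8.76 and 8.66 FPKM in *Dnttip1* KO and 5.44, 6.04, 9.15 and 9.34 FPKM in *Elmsan1* KO. All 8 KO libraries were below WT, but D2A7 and E2E8 were far lower than D1E6 and E2G7. With the clones of a KO that far apart, the log2 fold changes were -0.51 ± 0.22 (SE, adjusted p = 0.210) and -0.45 ± 0.24 (SE, adjusted p = 0.282). The highest was *Gatad2a*, which bridges the MBD protein to the remodeller, with 37.0 and 35.3 FPKM in WT, 41.2, 43.4, 50.2 and 50.8 FPKM in *Dnttip1* KO and 42.6, 43.7, 48.4 and 49.1 FPKM in *Elmsan1* KO. Every KO library was above WT, and the log2 fold change was 0.35 ± 0.10 (SE, adjusted p = 0.0830) in *Dnttip1* KO and 0.34 ± 0.08 (SE, adjusted p = 0.0382) in *Elmsan1* KO, the latter past an adjusted p of 0.05 at under 1.5-fold. Such separation is common, with every KO library below WT for 20.7% and 21.8% of all genes tested in the respective comparisons. The share above WT is not given, so separation is only described, for *Gatad2a* and for the genes below. *Gatad2a* lies on chromosome 8, and its *Elmsan1* KO value was -0.01 once each chromosome was centred on WT. The methyl-CpG protein genes *Mbd2* and *Mbd3*, the scaffolds *Mta1*, *Mta2* and *Mta3*, *Gatad2b* and *Chd4* were all between -0.20 and 0.20 in both comparisons. Of the chaperones, *Rbbp4* had 54.3 and 55.6 FPKM in WT, 55.9, 52.2, 48.7 and 48.0 FPKM in *Dnttip1* KO and 51.8, 47.0, 52.9 and 51.4 FPKM in *Elmsan1* KO, with log2 fold changes of -0.10 and -0.11, while those of *Rbbp7* were -0.01 and 0.02.

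No SIN3 subunit was called in either KO. *Sin3b*, one of the scaffolds, was the highest in *Dnttip1* KO, with 37.0 and 35.2 FPKM in WT, 50.8, 50.3, 43.8 and 42.5 FPKM in *Dnttip1* KO and 40.7, 40.5, 41.9 and 42.4 FPKM in *Elmsan1* KO. All KO libraries were above WT, at log2 fold changes of 0.37 ± 0.09 (SE, adjusted p = 0.0583) and 0.20 ± 0.05 (SE, adjusted p = 0.0524). *Ing2*, a reader of trimethylated lysine 4 of histone H3, was the highest in *Elmsan1* KO, with 4.69 and 4.93 FPKM in WT, 5.40, 5.25, 5.85 and 6.09 FPKM in *Dnttip1* KO and 6.70, 6.21, 6.22 and 5.93 FPKM in *Elmsan1* KO. Here too every KO library exceeded WT, and the log2 fold changes were 0.22 ± 0.09 (SE, adjusted p = 0.160) and 0.37 ± 0.08 (SE, adjusted p = 0.0327). *Ing2* and *Sin3b* lie on chromosome 8, and with each chromosome centred on WT the *Elmsan1* KO value of *Ing2* was 0.02 (adjusted p = 0.911 in limma). *Arid4b*, an ARID-domain subunit, was the lowest in both KOs, with 4.42 and 4.58 FPKM in WT, 4.26, 3.73, 4.12 and 4.16 FPKM in *Dnttip1* KO and 3.85, 3.77, 4.01 and 4.05 FPKM in *Elmsan1* KO. Its log2 fold changes were -0.14 ± 0.08 (SE, adjusted p = 0.319) and -0.19 ± 0.08 (SE, adjusted p = 0.167). The median over the 12 SIN3 genes was 0.04 in *Dnttip1* KO and -0.05 in *Elmsan1* KO.

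The NCoR/SMRT and MIER genes had no call and no adjusted p under 0.05 in either KO. Of the former, the lowest log2 fold change in both KOs was that of *Gps2*, an inhibitory subunit of NCoR/SMRT, at -0.05 ± 0.07 and -0.23 ± 0.12 (SE), from 15.1 and 13.3 FPKM in WT, 13.3, 14.4, 13.7 and 13.4 FPKM in *Dnttip1* KO and 11.1, 10.98, 12.9 and 13.8 FPKM in *Elmsan1* KO. The highest was *Tbl1x* in *Dnttip1* KO at 0.02 ± 0.07, a WD40 subunit with 16.4 and 16.6 FPKM in WT, 17.5, 17.9, 15.7 and 15.8 FPKM in *Dnttip1* KO and 14.0, 14.1, 16.5 and 15.9 FPKM in *Elmsan1* KO. In *Elmsan1* KO it was the corepressor *Ncor1* at 0.12 ± 0.06, with 19.3 and 19.3 FPKM in WT, 19.4, 20.1, 18.6 and 19.9 FPKM in *Dnttip1* KO and 21.1, 22.1, 20.7 and 20.2 FPKM in *Elmsan1* KO. All 4 *Elmsan1* KO libraries were above WT for *Ncor1*, whereas in *Dnttip1* KO libraries of *Ncor1* and of *Tbl1x* lay on both sides of WT.

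MIER proteins carry the same kind of domain as that through which the RCOR and MTA scaffolds bind HDAC1 and HDAC2. *Mier1* had 7.47 and 7.46 FPKM in WT, 7.79, 7.29, 7.39 and 7.45 FPKM in *Dnttip1* KO and 6.51, 6.22, 7.85 and 7.40 FPKM in *Elmsan1* KO, with log2 fold changes of 0.00 ± 0.06 and -0.10 ± 0.11 (SE). *Mier2*, whose identifier in the table is not an Ensembl one and which was therefore not placed on the genome, had 9.31 and 8.69 FPKM in WT, 9.56, 10.0, 10.3 and 10.1 FPKM in *Dnttip1* KO and 9.29, 10.8, 9.31 and 9.77 FPKM in *Elmsan1* KO, at 0.15 ± 0.06 and 0.12 ± 0.08. *Mier3* had 16.6 and 16.1 FPKM in WT, 23.7, 23.0, 13.6 and 14.0 FPKM in *Dnttip1* KO and 12.5, 12.4, 15.3 and 14.6 FPKM in *Elmsan1* KO. D2A7 was above and every other KO clone below WT, so its *Dnttip1* KO value of 0.14 ± 0.27 had a wide 95% interval of -0.52 to 0.79, and its *Elmsan1* KO value was -0.26 ± 0.10.

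**Figure D2:**
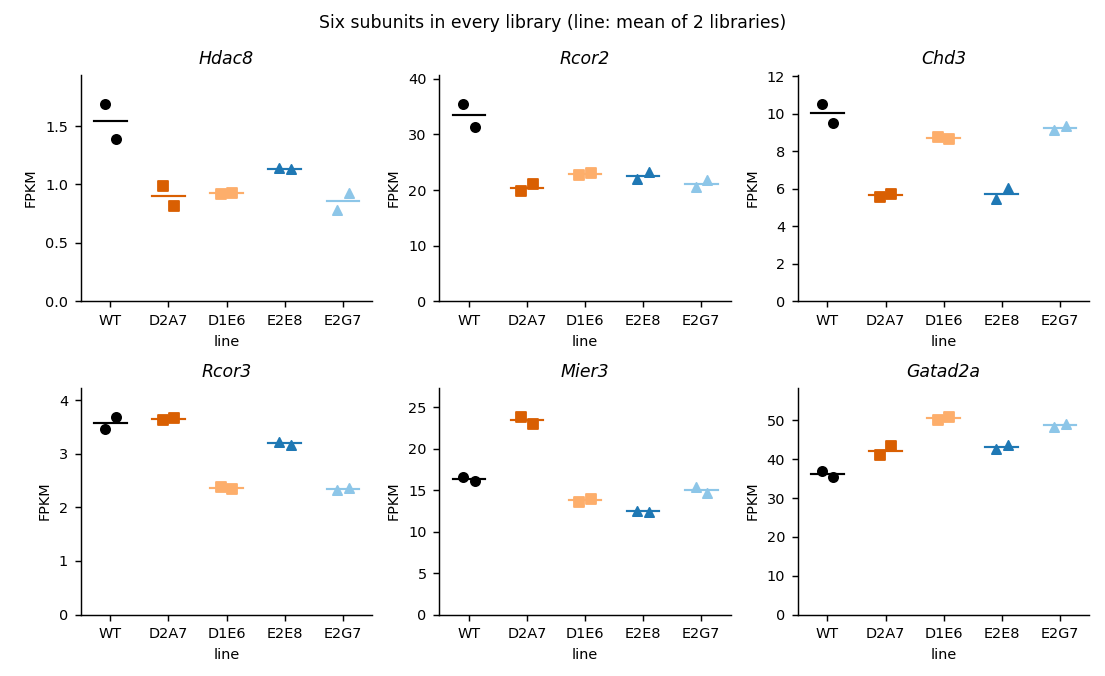
FPKM in each library of 6 subunits, with 1 point per library, a line at the mean of the 2 libraries of each line and axes from 0. *Hdac8* and *Rcor2* are lower than WT in all 4 KO clones, *Chd3* is lowest in D2A7 and E2E8, *Rcor3* is lowest in D1E6 and E2G7, *Mier3* is highest in D2A7, and *Gatad2a* is above WT in all 4 clones.

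Tested directly against each other, the 2 KOs did not differ in any member by the same rule, beside 1.52% of the 17600 genes tested. The count at an unadjusted p under 0.05 was 4 of 38, beside 15.8% of all genes, namely *Mta1* at -0.22 ± 0.08 (SE, adjusted p = 0.296), *Brms1* at 0.31 ± 0.12 (SE, adjusted p = 0.296), *Gatad2b* at 0.25 ± 0.09 (SE, adjusted p = 0.299) and *Sin3b* at 0.17 ± 0.07 (SE, adjusted p = 0.299), as log2 fold changes of *Dnttip1* KO over *Elmsan1* KO in limma. *Brms1* encodes a SIN3 subunit. The log2 fold changes of the 38 members lay between -0.22 and 0.39, with 95% intervals of -0.44 to 0.24 for *Hdac8* and -0.16 to 0.13 for *Rcor2*, and the count was 0 under every alternative with that rule, voom on recovered fragments included.

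The 2 clones of a KO were compared in a single fit over the 5 lines, whose p-values cover the spread between libraries of a line only. D2A7 differed from D1E6 in 3 of 38 members, beside 13.1% of 17870 genes, and E2E8 differed from E2G7 in 1 of 38, beside 12.5%. *Chd3* was lower in D2A7 than in D1E6 (-0.62 ± 0.06, SE, adjusted p = 0.000155, log2 fold change) and lower in E2E8 than in E2G7 (-0.68 ± 0.06, SE, adjusted p = 0.000116). *Chd3* lies on chromosome 11 from 69156775 to 69182928 on the minus strand.

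*Rcor3*, the third RCOR gene, on chromosome 1 from 193922652 to 193961892 on the minus strand, ran the other way. It had 3.46 and 3.68 FPKM in WT, 3.62, 3.66, 2.38 and 2.34 FPKM in *Dnttip1* KO and 3.21, 3.17, 2.33 and 2.36 FPKM in *Elmsan1* KO, so D1E6 and E2G7 were low and D2A7 was at the WT level. The log2 fold change was 0.60 ± 0.05 (SE, adjusted p = 5.64e-05) for D2A7 over D1E6 and 0.43 ± 0.05 (SE, adjusted p = 0.000343) for E2E8 over E2G7, which was under 1.5-fold. Of the exon length of *Rcor3*, 18.9% overlaps an antisense gene listed at a mean of 0.0048 FPKM, and for *Chd3* it is 5.66%, with an antisense gene at 0.105 FPKM. *Mier3*, on chromosome 13 from 112476386 to 112508804 on the plus strand, was higher in D2A7 than in D1E6 (0.76 ± 0.04, SE, adjusted p = 4.40e-06) and lower in E2E8 than in E2G7 (-0.26 ± 0.04, SE, adjusted p = 0.000654). With a pseudocount of 1 only *Mier3* remained called between D2A7 and D1E6.

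Set against WT clone by clone, 3 members were called in D2A7 (*Chd3*, *Hdac8*, *Rcor2*; 16.3% of all genes), 1 in D1E6 (*Hdac8*; 11%), 1 in E2E8 (*Chd3*; 16.1%) and 3 in E2G7 (*Hdac8*, *Rcor2*, *Rcor3*; 9.95%), and in each case the member was lower. The log2 fold change of *Rcor2* was -0.71, -0.54, -0.56 and -0.65 in D2A7, D1E6, E2E8 and E2G7, with an SE of 0.06. That of *Hdac8* was -0.71, -0.67, -0.40 and -0.78, with an SE of 0.13. Without WT replicate 1 *Hdac8* was called in neither D2A7 nor D1E6 (-0.58 and -0.54) and *Rcor2* was not called in E2G7 (-0.57). *Rcor2* was called as well without WT replicate 2 in D1E6 and E2E8 and without E2E8 replicate 2 in E2E8, while in D1E6 *Rcor3* was called without WT replicate 1 and without D1E6 replicate 1. *Rcor3* in E2G7 was at -0.54 without WT replicate 2 and at -0.58 without E2G7 replicate 1.

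In the clone E2E8 more members were lower than higher. At an adjusted p under 0.05, 22 of 38 members (57.9%) were lower and 5 higher in E2E8 than in WT, beside 29.5% lower and 31.1% higher among the 12215 genes whose mean reached 1 FPKM. Against E2G7 the counts were 21 lower (55.3%) and 5 higher, beside 26.9% and 29.1% of the same genes. The SIN3 genes made up 8 of the members lower than in E2G7, out of 12, with none higher: *Brms1* at -0.44 ± 0.04 (SE, adjusted p = 0.000121), *Sin3a* at -0.38 ± 0.03 (SE, adjusted p = 3.92e-05), *Ing1* at -0.34 ± 0.03 (SE, adjusted p = 0.000120) and *Suds3* at -0.32 ± 0.06 (SE, adjusted p = 0.00327) had the largest log2 differences. *Sin3a* encodes the main SIN3 scaffold and *Suds3* a subunit that supports its deacetylase activity. *Brms1* had 11.6 and 12.2 FPKM in WT and 8.95, 9.12, 12.2 and 12.5 FPKM in *Elmsan1* KO, and *Sin3a* had 32.8 and 32.4 FPKM in WT and 27.7, 27.6, 36.6 and 35.3 FPKM in *Elmsan1* KO, with both E2E8 libraries below WT in each gene. The exceptions that were higher in E2E8 than in E2G7 were *Hdac8*, *Mta1*, *Mta3*, *Phf21a* and *Rcor3*. For D2A7, D1E6 and E2G7 the counts lower and higher than WT were 8 and 10, 9 and 7, and 7 and 8, beside 27.5% and 28.9%, 23.9% and 24.6%, and 22.6% and 23.8% of those genes. Without E2E8 replicate 2 the counts lower than in WT and than in E2G7 were 14 and 17. Both counts share the E2E8 libraries.

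**Figure D3:**
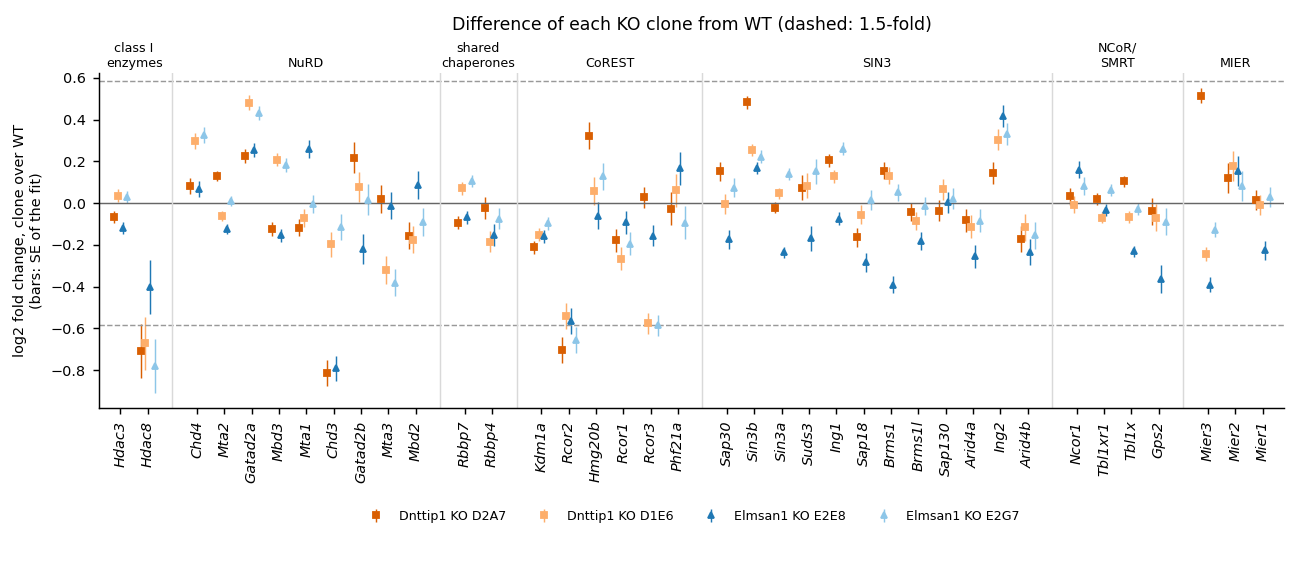
Log2 fold change of each KO clone over WT for the 38 subunits in 1 limma fit over the 5 lines, with bars for the standard error and dashed lines at 1.5-fold. Points below the lower line are *Hdac8*, *Rcor2*, *Chd3* and *Rcor3*, no point is above the upper line, and most E2E8 points (dark blue) are below 0.

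Chromosome 8 as a whole was higher in all 4 KO clones, and 5 members lie on it. The median log2 fold change over WT of its 667 genes whose mean reached 1 FPKM was 0.37, 0.37, 0.35 and 0.36 in D2A7, D1E6, E2E8 and E2G7, a ratio of 1.27 to 1.29. The 542 such genes of chromosome 6 were at 0.42, 0.39 and 0.29 in D1E6, E2E8 and E2G7 and at -0.08 in D2A7, and the medians of all other chromosomes lay between -0.10 and 0.04. *Gatad2a*, *Sin3b*, *Sap30*, *Ing1* and *Ing2* are on chromosome 8. *Gatad2a* had log2 fold changes of 0.23 and 0.48 in D2A7 and D1E6 and differed from the chromosome's median there by -0.15 and 0.12. *Sap30* was below the chromosome's median in all 4 clones, at differences of -0.22, -0.37, -0.52 and -0.28, and so was *Ing1*, at -0.17, -0.24, -0.42 and -0.09. *Chd4*, on chromosome 6, had log2 fold changes of 0.30 and 0.33 in D1E6 and E2G7 and of 0.08 and 0.07 in D2A7 and E2E8.

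With each chromosome centred on WT, *Gatad2a*, *Ing2* and *Sin3b* were at -0.02, -0.15 and -0.000955 in *Dnttip1* KO and at -0.01, 0.02 and -0.16 in *Elmsan1* KO, so none of the 3 stayed above WT by more than 0.02. *Sap30* moved to -0.30 and -0.40 and *Ing1* to -0.20 and -0.26. The calls of *Hdac8* and *Rcor2* in the KOs were the same after centring, with an adjusted p of 0.0557 in limma for *Hdac8* in *Dnttip1* KO. For the 3 members on chromosome X, *Hdac8*, *Rbbp7* and *Tbl1x*, the chromosome's medians were between -0.10 and -0.06 in the 4 clones.

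**Figure D4:**
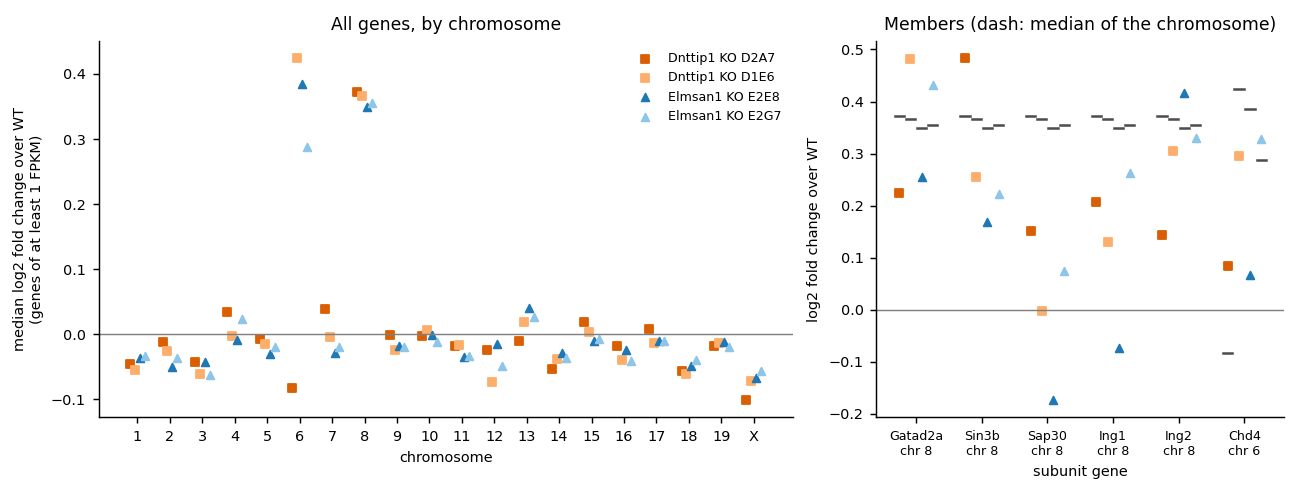
Left, median log2 fold change over WT of the genes whose mean reached 1 FPKM on each chromosome, with 1 point per KO clone; right, the log2 fold change of the 6 members on chromosomes 8 and 6, with a dash at the median of the chromosome in the same clone. Chromosome 8 is near 0.36 in all 4 clones and chromosome 6 is raised in 3, and *Sap30* and *Ing1* lie below their dashes in all 4.

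The balance between paralogues was compared as the difference of log2(FPKM + 0.1) between 2 genes of the same library, over 19 pairs and both KOs (38 tests). With 4 KO and 2 WT libraries the exact two-sided permutation test cannot give a p below 0.0667, so no pair could pass 0.05 whatever its values. The smallest adjusted p of that test was 0.281, and it decides nothing about any pair. The test also treats libraries of a clone as independent. KO libraries did not overlap WT in 5 pairs in *Dnttip1* KO and 10 pairs in *Elmsan1* KO, and in 4 of the 19 pairs this held on the same side in both KOs. These 4 are described, having been chosen for that after their values were seen. Among single genes, 20.7% and 21.8% of all tested had every library of the respective KO below WT. No such share is given for pairs of other genes. The 19 pairs also share genes and the 2 WT libraries, so the counts are no result about paralogue balance. *Chd3* over *Chd4* was -2.77 ± 0.05 (SD, n = 2 libraries) in WT, -3.46 ± 0.23 (n = 4) in *Dnttip1* KO and -3.42 ± 0.24 (n = 4) in *Elmsan1* KO, and every KO library was below WT. The 4 libraries of a KO are 2 libraries from each of 2 clones, here and for the ratios below, so they are not 4 independent samples. *Chd3* supplied 12.7% of the summed FPKM of the pair in WT and 7.20%, 9.35%, 7.38% and 9.68% in D2A7, D1E6, E2E8 and E2G7. *Chd4* lies on chromosome 6, whose medians were 0.42 in D1E6 and 0.29 in E2G7. In these clones the log2 fold changes over WT were 0.30 and 0.33 for *Chd4* and -0.20 and -0.11 for *Chd3*. The ratio there thus moved more through *Chd4* than through *Chd3*. *Rcor1* over *Rcor2* was -2.39 ± 0.09 in WT, -1.99 ± 0.17 in *Dnttip1* KO and -1.92 ± 0.02 in *Elmsan1* KO, with every KO library above WT. *Sin3a* over *Sin3b* was -0.15 ± 0.04 in WT, -0.50 ± 0.17 in *Dnttip1* KO and -0.39 ± 0.19 in *Elmsan1* KO, again with no overlap, and *Sin3b* lies on chromosome 8. *Hdac3* over *Hdac8* was 3.65 ± 0.20 in WT, 4.32 ± 0.10 in *Dnttip1* KO and 4.19 ± 0.31 in *Elmsan1* KO. In WT the level of *Hdac3* was thus 13.3 times that of *Hdac8*, and in the clones it was between 16.5 and 24.4 times (means of the 2 libraries).

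**Figure D5:**
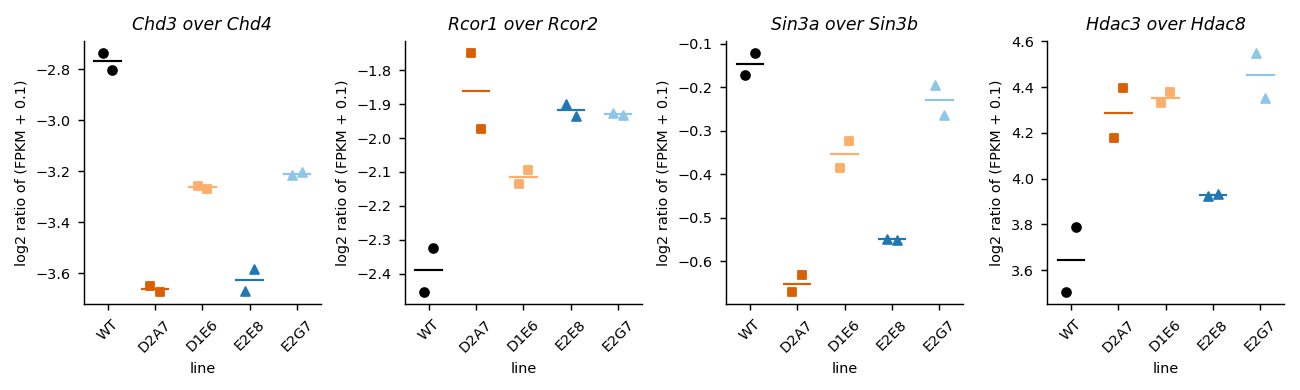
Log2 ratio of (FPKM + 0.1) between paralogues for 4 pairs in each library, with a line at the mean of each line; each panel has its own axis, which does not start at 0. *Chd3* over *Chd4* is lowest in D2A7 and E2E8, and the 4 pairs shown are those of 19 in which all KO libraries are on 1 side of WT.

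Further subunits, cofactors and deacetylases that are no members give the surroundings. Of 44 other genes of these complexes that were tested, 3 were higher and none lower in *Dnttip1* KO by the same rule, beside 3.26% and 3.24% of all genes, and 2 were higher and 2 lower in *Elmsan1* KO, beside 2.74% and 3.68%. *Pwwp2b*, which encodes a PWWP-domain partner of NuRD, was 0.732 and 0.534 FPKM in WT, 1.11, 1.37, 1.80 and 1.74 FPKM in *Dnttip1* KO and 1.87, 2.18, 1.82 and 1.84 FPKM in *Elmsan1* KO, log2 fold changes of 1.12 ± 0.23 (SE, adjusted p = 0.0386) and 1.48 ± 0.16 (SE, adjusted p = 0.00594). *Chd5*, the third ATPase of the NuRD type, was 0.292 and 0.305 FPKM in WT, 0.591, 0.662, 0.590 and 0.710 FPKM in *Dnttip1* KO and 0.970, 1.09, 0.521 and 0.591 FPKM in *Elmsan1* KO, log2 fold changes of 0.89 ± 0.15 (SE, adjusted p = 0.0224) and 1.11 ± 0.31 (SE, adjusted p = 0.0717). Both genes were thus higher in every KO library and stayed at low levels.

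*Gse1*, a CoREST partner on chromosome 8, rose in *Dnttip1* KO (0.62 ± 0.11, SE, adjusted p = 0.0281) and was at 0.20 ± 0.23 (SE, adjusted p = 0.605) in *Elmsan1* KO. It had 3.93 and 4.07 FPKM in WT, 6.28, 7.24, 5.68 and 5.75 FPKM in *Dnttip1* KO and 3.58, 3.82, 5.59 and 5.87 FPKM in *Elmsan1* KO. Of the *Elmsan1* KO clones, E2E8 was thus below WT and E2G7 above it. The median of chromosome 8 was 0.37 in D2A7 and in D1E6. *Ctbp2*, a corepressor that joins CoREST, fell in *Elmsan1* KO (-0.68 ± 0.13, SE, adjusted p = 0.0249), as did *Mxd4*, a partner of MAX that recruits SIN3 (-0.69 ± 0.16, SE, adjusted p = 0.0420), with -0.47 ± 0.10 (SE, adjusted p = 0.0369) and -0.59 ± 0.19 (SE, adjusted p = 0.112) in *Dnttip1* KO. For *Hdac1* the log2 fold changes were 0.25 ± 0.04 (SE, adjusted p = 0.0235) in *Dnttip1* KO and 0.12 ± 0.08 (SE, adjusted p = 0.380) in *Elmsan1* KO. Those of *Hdac2*, whose protein the paper did not detect with MiDAC in mESCs, were -0.19 ± 0.12 (SE, adjusted p = 0.368) and -0.34 ± 0.09 (SE, adjusted p = 0.0589). *Hdac2* had 58.0 and 54.6 FPKM in WT, 55.6, 54.9, 43.6 and 44.2 FPKM in *Dnttip1* KO and 41.7, 40.5, 48.5 and 47.0 FPKM in *Elmsan1* KO. By qRT-PCR the paper reports unchanged *Hdac1* and slightly reduced *Hdac2* RNA in *Dnttip1* KO. It saw no significant effect on either protein there. The 13 other deacetylases tested, from HDAC4 to the sirtuins, had no call in either KO against WT. Between the KOs 1 of the 13 was higher in *Dnttip1* KO by the same rule, beside 1.52% of all genes called in either direction. None had an adjusted p under 0.05 there. *Hdac7* had the highest log2 fold change of that comparison, at 0.70. It had 1.58 and 1.41 FPKM in WT, 2.92, 2.95, 1.82 and 1.86 FPKM in *Dnttip1* KO and 1.53, 1.72, 1.05 and 1.36 FPKM in *Elmsan1* KO.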

How the data were processed

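The authors deposited 1 table of FPKM for 10 libraries, made from reads mapped to NCBIM37 and counted with HTSeq on a GENCODE annotation; their processing notes also name edgeR 3.16.5, limma and R 3.3.1. Counting was per gene, and its strand setting and its handling of reads with several matches are not given in the sources used here. Gene positions and exon lengths came from GENCODE vM1 on NCBIM37, matched by identifier for 33606 of 34591 genes (97.2%). Nearly all low FPKM values (98.4% to 98.6%, within 0.05) were whole multiples of a step set by length and depth, which gave totals of 31098269 to 86463773 fragments per library and the fragments behind each gene. PCR duplicates cannot be told from these values.

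FPKM were divided by library factors (0.965 to 1.01, medians of ratios over the 11270 genes that reached 1 FPKM in every library), and all levels printed are after this division. Genes that reached 0.1 FPKM in 2 or more libraries were tested in limma 3.58.1 (R 4.3.3) with a variance trend on log2(FPKM + 0.1), so fold changes of low genes are understated. KO libraries were compared with WT libraries by genotype, and clones in 1 fit over the 5 lines. The call rule was a 1.5-fold change or more with p under 0.01, and adjusted p-values are Benjamini-Hochberg values over all genes tested. The sources call the 2 libraries of a line biological replicates, and libraries of a clone entered as separate samples. The estimated correlation within clones was 0.704 in *Dnttip1* KO against WT and 0.768 in *Elmsan1* KO against WT. Libraries of a clone are thus not independent, and the p-values between genotypes understate the uncertainty that comes from clones. The tests were checked on simulated data with the spread between libraries of a line but no difference between clones. That check therefore does not cover the correlation within clones.

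The members, complexes and lists of further genes were chosen with earlier results of these data known. Values in every library are given for members called between KOs and WT, for members past 1.5-fold and an adjusted p of 0.05 between clones, for the highest and lowest member of each complex in each KO, and for the 3 of highest and 3 of lowest mean level; *Brms1* and *Sin3a* were added for E2E8 after their values were seen. Clones are named by code, since the labels and the design text number the *Dnttip1* clones differently. Alternatives covered the pseudocount, the filter, the scaling, the variance trend, chromosome centring, the threshold, voom on recovered fragments, the samples in the fit, a block, the correlation within clones and each library left out; those for clones against WT and for the E2E8 counts were added after seeing the data. Same-numbered libraries did not deviate together, with a correlation of their deviations from the line means between -0.139 and 0.192 over 10 pairs of lines.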

Additional observations from a re-analysis of the deposited data

Results flagged for a closer look

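Between the clones of a KO, the difference itself was tested in the fit over the 5 lines. *Chd3* differed by a log2 fold change of -0.62 between D2A7 and D1E6 and of -0.68 between E2E8 and E2G7 (lower in D2A7 and in E2E8). *Rcor3* differed by 0.60 and *Mier3* by 0.76 between D2A7 and D1E6. For *Chd3*, *Rcor3* and *Mier3* the sign was the same in every alternative run and with each library left out; the calls of *Chd3* and *Rcor3* between D2A7 and D1E6 were lost with a pseudocount of 1, and that of *Rcor3* also with quantile normalization. Dixon's test at 95% marked no library in the 76 groups of 4 (38 members, 2 KOs), but each group holds 2 clones of 2 libraries, so a difference between clones widens the range and the test says little about single libraries.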

How the results depend on the processing

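The number of members called in *Dnttip1* KO against WT was 1 in place of 2 with a pseudocount of 1 and with the correlation within clones, and 0 to 2 with 1 library left out. In *Elmsan1* KO it was 2 in place of 1 with all 10 libraries in 1 fit, and 0 to 1 with 1 library left out. Between D2A7 and D1E6 it was 1 in place of 3 with a pseudocount of 1. Against WT, D1E6 had 0 with a pseudocount of 1, 2 with a pseudocount of 0.01, 2 with voom on recovered fragments and 1 to 2 with a library left out, in place of 1; E2E8 had 2 with voom and 1 to 2 with a library left out, in place of 1; E2G7 had 1 in place of 3 with a pseudocount of 1, and 2 (without *Rcor3*) with FPKM as deposited, quantile normalization and chromosome centring; D2A7 had 2 in place of 3 (without *Hdac8*) with a pseudocount of 1. Lost calls with a pseudocount of 1 follow from its shrinking of low genes, and the cause of the others was not tested. *Gatad2a* in *Elmsan1* KO changed sign with each chromosome centred on WT, to -0.0106, and centring left 1 member at an adjusted p under 0.05 in place of 2 in *Dnttip1* KO and of 3 in *Elmsan1* KO. Of the 400 values of single genes under alternatives, 376 kept their direction and side of the threshold. This count does not measure the size of a change, since a gene without a call stays on its side whenever it remains uncalled. *Ing2* in *Elmsan1* KO was counted as kept although centring took its log2 fold change from 0.37 to 0.02. Replicate numbers did not pair the libraries, and a replicate block left the calls at 2 in *Dnttip1* KO, 1 in *Elmsan1* KO, 0 between KOs, 3 between D2A7 and D1E6 and 1 between E2E8 and E2G7. The directions of the 4 paralogue ratios named held with pseudocounts of 1 and 0.01. The WT libraries, the shallowest of the 10, enter every comparison with WT, and *Hdac8* rests on as few as 211 fragments.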
